A study of Homo sapiens with 2 samples.

Results

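Nuclear pore subunits and the receptors that carry cargo through the pore were examined as a group of 50 genes among 55773 annotated gene symbols. The members were chosen by symbol. They were the NUP genes, the importin genes KPNA, KPNB and IPO, the exportins XPO1, XPO4, XPO6 and XPO7, the transportins TNPO1 to TNPO3, and RAN, RANBP1, RANBP2, RANGAP1, RCC1, CSE1L, TPR and SEC13. Each symbol had 1 row in each table. The samples were 2 RNA-seq libraries of NCI-H2030, an established lung adenocarcinoma cell line. The SC library came from cells given a treatment labelled SC, and the AS library from cells given a treatment labelled miR-494-3p AS. Neither abbreviation is spelled out, and no other treatment, dose or time is named. The tables give gene-level RNA and no level of the mature microRNA. The title ties the study to the microRNA miR-494-3p and to SET, so the comparison asks how transcript levels differ with a treatment directed at that microRNA. With 1 library in each group there is no replicate error and no test, and every difference below is a difference between these 2 libraries.

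The nuclear pore is a large ring of protein subunits set in the nuclear envelope, and it is the main passage between nucleus and cytoplasm. An outer and an inner ring form its scaffold, a membrane ring anchors it, and subunits with phenylalanine and glycine repeats fill the channel. Importins bring proteins in and exportins take proteins and some RNAs out. The small GTPase Ran sets the direction of both, because it is loaded with GTP in the nucleus by RCC1 and its GTP is hydrolysed in the cytoplasm with RANGAP1. Growing and dividing cells need these genes for transport and, in mitosis, for spindle assembly and for rebuilding the envelope.

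Depth was similar in both libraries by the only measure the tables allow, the most common coverage per unit of FPKM. It was 3.62 in SC and 3.54 in AS. Read counts are not given, so no counting interval was computed. Epithelial keratins were abundant, with KRT18 at 558 TPM in SC against 479 in AS. Of 11 markers of lung adenocarcinoma and epithelium, 5 were under 1 TPM (NKX2-1, SFTPB, SFTPC, KRT19 and CDH1). The 11 together summed to 1142 TPM in SC against 907 in AS. The 6 fibroblast markers summed to 32.3 and 25.4 TPM and the 5 leukocyte markers to 9.02 and 4.28 TPM, nearly all of it CD14. PTPRC and CD3E were listed at 0 in both, and the 3 endothelial markers with a row summed to 0.149 and 0.0511 TPM.

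Transcripts of the pore and its receptors were mostly higher in AS. In bulk RNA a change in the share of cells with a transcript and a change in its level per cell cannot be told apart. A gene was called measured when the mean of its 2 TPM values was at least 1, which 47 of the 50 members reached. TPM is a level per transcript length, so levels of different genes can be set side by side. The ratio used is log2((AS + 1)/(SC + 1)) on TPM, which understates the ratio of low genes, and 2-fold means a value of 1 or more on this scale. Of the 47 measured members, 18 were 2-fold or more higher in AS (38.3%), none was 2-fold lower, and 44 had a ratio above 0. Among all 13669 measured genes 16.5% were 2-fold higher, 2.17% were 2-fold lower and 66.2% had a ratio above 0. The median log2 ratio of the members was 0.79, against 0.28 over all measured genes. Only IPO4, RANGAP1 and NUP88 lay below 0, and relative to the median of all genes SEC13, NUP93, NUP62, IPO13 and RCC1 did as well. KPNA7, an importin alpha known from the egg and early embryo, was listed at 0 in both libraries. IPO11, an importer of ubiquitin-conjugating enzymes, was at 0.347 TPM in SC against 0.952 in AS, and NUP210L, a paralog of NUP210, at 0.104 and 0.103 TPM. Both were under the filter. KPNA5 and XPO4 passed it only through their AS value, and neither was 2-fold higher.

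The deposited coverage is the mean read depth over a gene. It was compared as a second measure, brought to the TPM scale by 1 constant in each library. The constant rests on the most common ratio of coverage to FPKM. Genes at that ratio have the same value in both measures by construction, so the measures are not independent. In coverage, 19 members had a ratio of 2-fold or more toward AS (40.4%) and none was 2-fold lower, where 9.47% and 0.863% of all measured genes were. A ratio above 0 was found in 43 members, against 67.6% of all. The median log2 ratio was 0.72 for the members and 0.25 for all measured genes. In both measures 17 members (36.2%) and 8.94% of all measured genes were 2-fold higher. When coverage was scaled without the factor that turns FPKM into TPM, 10 members and 3.94% of all measured genes were 2-fold higher. The tables also hold loci assembled from the reads. For each gene the locus of largest overlap on its strand was picked in each library separately. Its 2 values can therefore come from different stretches. In these loci 18 members were 2-fold higher and none was 2-fold lower, against 16.1% and 2.92% of all genes with a locus. Of the 18, 13 were among those 2-fold higher in the annotated rows.

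**Figure D1:**
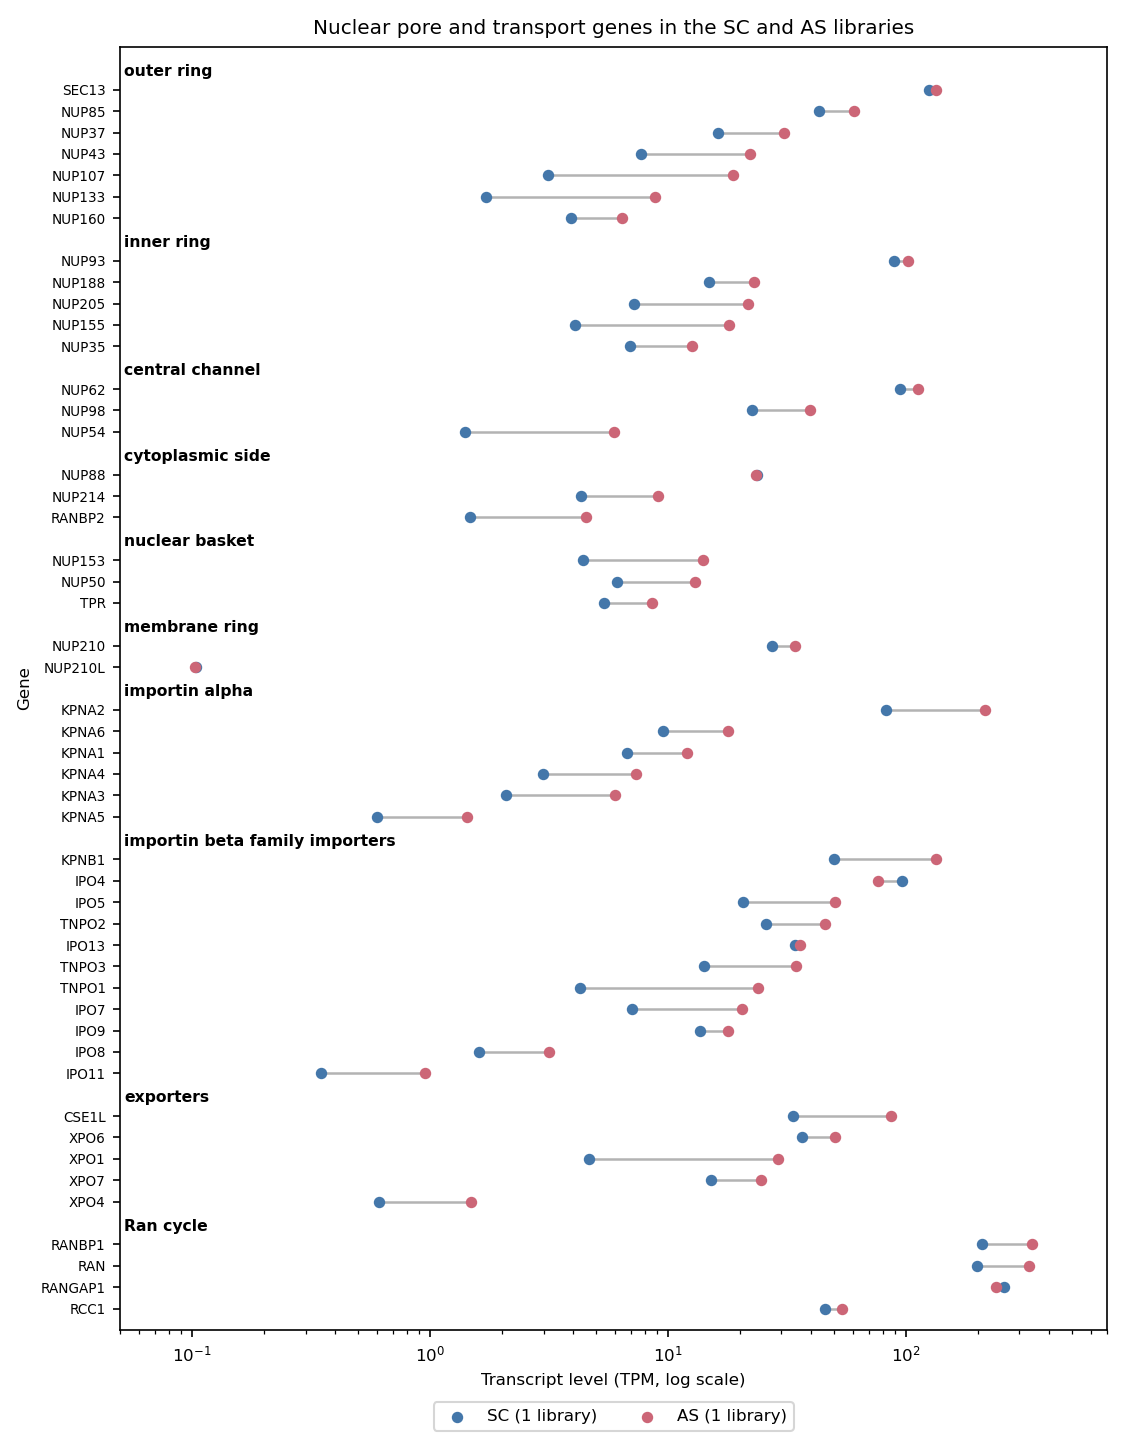
Transcript level in TPM on a log axis for the 49 members above 0, with the SC library in blue and the AS library in red, grouped by role and without error bars because each group is 1 library. AS lies to the right of SC for most genes, and IPO4, at 95.9 TPM in SC against 76.1 in AS, is the clearest exception.

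The outer ring, or Y complex, held the gene with the largest TPM ratio among scaffold genes. NUP107 (chromosome 12, 69080514 to 69136785, in the GRCh37 coordinates of the tables) stood at 3.12 TPM in SC against 18.8 in AS, a log2 ratio of 2.26. NUP133, its partner at the stem of the complex, stood at 1.72 and 8.84 TPM (1.85), and NUP43, a beta-propeller subunit, at 7.67 and 22.04 TPM (1.41). These 3 genes were 2-fold higher, where 16.5% of all measured genes were. The other 4 were not, and the most abundant of them hardly differed. SEC13, which also serves in the COPII coat of secretory vesicles, was at 125 and 133 TPM (0.09), and NUP85, which sits on an arm of the Y, at 43.0 and 60.4 TPM (0.48). NUP37, a small beta-propeller subunit that binds NUP160, was at 16.3 and 30.8 TPM (0.88). The measures parted for NUP160, a scaffold subunit of the Y, with a log2 ratio of 0.59 in TPM (3.93 and 6.40 TPM) and of 1.14 in coverage. For NUP107 the ratio was smaller in coverage, at 1.21, and in its assembled locus, at 0.89. Although these proteins are built into 1 complex, their transcripts spanned 1.72 to 125 TPM in SC and 6.40 to 133 TPM in AS.

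The inner ring, which lines the channel wall, gave 2 of 5 genes at least 2-fold higher, against 16.5% of all measured genes in TPM. NUP155 stood at 4.05 TPM in SC against 18.03 in AS (log2 ratio 1.91). It also had the largest ratio of all members in coverage, at 1.63. The large scaffold protein NUP205 stood at 7.17 and 21.6 TPM (1.47), but its assembled locus gave a log2 ratio of 0.50. Its paralog NUP188 was at 14.8 and 23.1 TPM, and its log2 ratio of 0.61 in TPM was 0.07 in coverage. NUP35, which binds membrane and other inner ring subunits, was at 6.95 and 12.7 TPM (0.78). NUP93, the linker of the inner ring, was its most abundant transcript in TPM, at 89.1 and 102 TPM (0.19). In coverage on the TPM scale it was at 11.0 and 12.2, below NUP188 in both libraries.

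Channel and peripheral subunits were mixed. NUP62, the central FG-repeat protein, was at 94.8 TPM in SC against 113 in AS (log2 ratio 0.25), whereas NUP54, with which it forms a channel complex, was at 1.41 and 5.93 TPM (1.53). NUP54 was the only member 2-fold higher in TPM and not in coverage, where its log2 ratio was 0.86. NUP98, whose precursor also yields the Y complex subunit NUP96, was at 22.5 and 39.5 TPM (0.79). On the cytoplasmic side RANBP2, a SUMO ligase that binds Ran, was at 1.48 and 4.54 TPM (1.16, and 0.85 in its assembled locus). The 7 rows of its near-identical RGPD copies summed to 0.826 TPM in SC against 3.55 in AS, and reads shared between RANBP2 and these copies cannot be told apart. NUP214, a docking site of export complexes, was at 4.32 and 9.09 TPM, with a log2 ratio of 0.92 in TPM but 0.18 in coverage, and its partner NUP88 was level at 23.7 and 23.4 TPM (-0.02).

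In the nuclear basket NUP153 stood at 4.38 TPM in SC against 14.0 in AS (log2 ratio 1.48, and 1.41 in coverage). NUP50, which helps release importin alpha from cargo, was at 6.12 and 13.0 TPM (0.98, and 1.10 in coverage). TPR, the filament protein of the basket, was at 5.37 and 8.61 TPM (0.59). NUP210 of the membrane ring was at 27.5 and 34.1 TPM (0.30). Over all pore subunits, 8 of 22 measured genes were 2-fold higher in TPM and 9 in coverage, with medians of 0.83 and 0.76. Of all measured genes 16.5% and 9.47% were, with medians of 0.28 and 0.25.

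**Figure D2:**
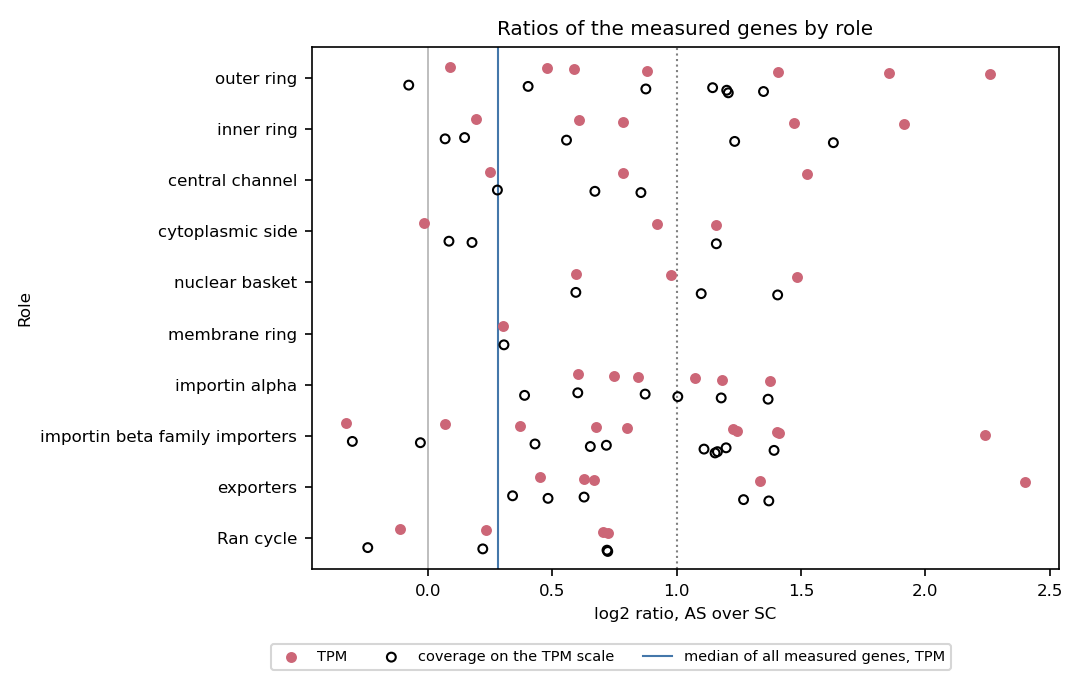
Log2 ratio of AS over SC for the 47 measured members by role, in TPM (filled red) and in coverage on the TPM scale (open black), with 2-fold marked by the dotted line and the median of all measured genes in TPM, 0.28, by the blue line. In TPM no gene of the Ran cycle reaches 2-fold, while 5 of 10 importin beta family importers do. Among all measured genes 16.5% do, and with 4 measured genes the Ran cycle is too small to set apart from that share.

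The importin alpha family, whose proteins bind classical nuclear localization signals and link cargo to importin beta, was higher in AS in each of its 6 measured genes. A ratio above 0 was found in 66.2% of all measured genes, and KPNA5 passed the filter only through its AS value. KPNA2 (chromosome 17, 66031635 to 66042958), the member known for high levels in dividing cells, stood at 82.1 TPM in SC against 214 in AS, a log2 ratio of 1.37 in both TPM and coverage. It made up 78.9% of the family's summed TPM in SC and 82.8% in AS. KPNA3 was at 2.08 and 5.99 TPM (1.18), although its assembled locus gave a log2 ratio of -0.16, and KPNA4 at 2.97 and 7.37 TPM (1.07). The other 3 lay under 2-fold, which 16.5% of all measured genes reached. KPNA1 was at 6.74 and 12.0 TPM (0.75), KPNA6 at 9.54 and 17.9 TPM (0.84, but 0.39 in coverage) and KPNA5 at 0.599 and 1.43 TPM (0.60). The family summed to 104 TPM in SC against 259 in AS.

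The importin beta family carries cargo without an adaptor or, for KPNB1, also through importin alpha. KPNB1, importin beta itself (chromosome 17, 45726842 to 45762871), stood at 50.0 TPM in SC against 134 in AS (log2 ratio 1.41, and 1.39 in coverage). TNPO1, the receptor of many RNA-binding proteins, stood at 4.26 and 23.9 TPM, a log2 ratio of 2.24 that was 1.15 in coverage. IPO7, which also carries ribosomal proteins, was at 7.08 and 20.5 TPM (1.41, but 0.65 in its assembled locus), and IPO5, an importer of ribosomal proteins and histones, at 20.8 and 50.5 TPM (1.24). TNPO3, the receptor of serine and arginine rich splicing factors, was at 14.2 and 34.5 TPM (1.23). These 5 were 2-fold higher in both TPM and coverage, where 8.94% of all measured genes were. The other 5 were not. TNPO2, a close paralog of TNPO1, was at 25.9 and 45.8 TPM (0.80), IPO8, a paralog of IPO7, at 1.61 and 3.17 TPM (0.67) and IPO9, an importer of core histones, at 13.6 and 17.9 TPM (0.37). IPO13, which carries cargo in both directions, was at 34.1 and 35.7 TPM (0.07). IPO4, an importer of histones with their chaperone, was the member with the lowest ratio, at 95.9 and 76.1 TPM (-0.33, and -0.30 in coverage). A second annotated gene on the same strand overlaps IPO4 and was at 78.1 and 64.9 TPM. NUP62, NUP98, NUP160, NUP188, RANBP1 and KPNA6 also overlap another annotated gene on their strand, and the part of these overlaps in the values was not tested.

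The exporters had the largest ratio of all members in TPM. XPO1, or CRM1, the receptor of leucine-rich nuclear export signals (chromosome 2, 61704984 to 61765761), stood at 4.67 TPM in SC against 28.96 in AS, a 6.20-fold difference and a log2 ratio of 2.40. Its coverage on the TPM scale was 3.98 and 11.9, a 2.98-fold difference and a log2 ratio of 1.37. The assembled locus of XPO1 was at 15.5 TPM in SC against 33.5 in AS, a log2 ratio of 1.07. CSE1L, which returns importin alpha to the cytoplasm, stood at 33.5 and 86.2 TPM (1.34, and 1.27 in coverage). XPO6, the exporter of actin with profilin, was at 36.6 and 50.3 TPM (0.45), XPO7 at 15.2 and 24.7 TPM (0.67) and XPO4 at 0.608 and 1.48 TPM (0.63).

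In TPM, RAN, RANBP1 and RANGAP1 were the most abundant transcripts of the system. In coverage on the TPM scale RANBP1 was at 35.9 in SC and 59.7 in AS, below KPNA2 at 47.6 and 124. No gene of the Ran cycle reached 2-fold in TPM or coverage, where 16.5% and 9.47% of all measured genes did. RAN was at 199 TPM in SC against 328 in AS (log2 ratio 0.72), and its binding protein RANBP1 at 208 and 340 TPM (0.70). The 9 rows of RAN pseudogenes summed to 5.49 and 9.09 TPM. RCC1, the nucleotide exchange factor, was at 45.9 and 54.1 TPM (0.23). Its locus also holds SNHG3, at 55.6 and 95.9 TPM, and the assembled locus that covers RCC1 was at 49.1 TPM in SC against 157 in AS. RANGAP1, the GTPase activator, was at 257 and 238 TPM (-0.11, and -0.24 in coverage). In SC it had the highest TPM of all members, while in AS RANBP1 and RAN stood above it.

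TPM and coverage gave close ratios for most members and diverged for some. For 33 of 47 members the log2 ratios differed by at most 0.2, and for 8 by more than 0.5. Where a member lay at the most common ratio of coverage to FPKM in both libraries, the match follows from the scaling. KPNA5, XPO4, RANBP2 and KPNA3 were such members, to within rounding or nearly so. The largest TPM ratios were among the divergent ones, namely XPO1, NUP107 and TNPO1, each above 2 in TPM and between 1.15 and 1.37 in coverage. The levels themselves depended more on the measure. In SC the TPM was over 1.5 times the coverage on the TPM scale in 21 of 47 members and in none was it lower by that factor. It was 8.13 times as high for NUP93, 7.80 times for NUP62 and 10.7 times for XPO7. The part of this gap in the ratios was not tested.

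**Figure D3:**
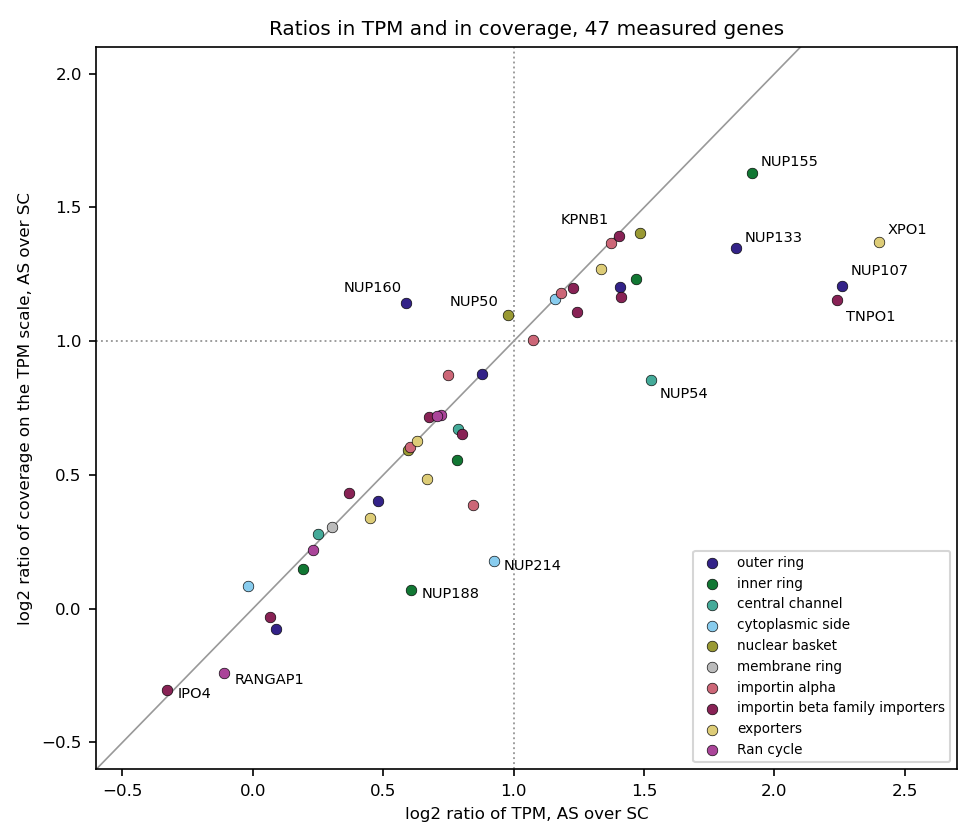
Log2 ratio in TPM (horizontal) against log2 ratio in coverage on the TPM scale (vertical) for 47 members coloured by role, with equality as the diagonal and 2-fold as dotted lines. XPO1, NUP107 and TNPO1 lie far below the diagonal, NUP160 lies above it, and 17 members lie past 2-fold on both axes.

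Members of lower level had higher ratios. Spearman's rho between mean TPM and log2 ratio was -0.36 over the 47 members in TPM and -0.29 with the ratio in coverage, against -0.23 over all measured genes in TPM. The genes share both libraries and are not replicates. The spread between members was smaller in AS. The SD of log2(TPM + 1) over the 47 genes was 1.96 in SC and 1.72 in AS, and in coverage it was 1.62 and 1.52. The same held over all measured genes, with 2.28 in SC and 2.0995 in AS in TPM, and 2.07 and 1.96 in coverage.

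The ratios moved with the base composition of the transcripts. The longest coding transcript of each gene in GENCODE release 29 had a median GC content of 44.4% over the members, against 50.7% over the 10638 measured coding genes matched to it (77.8% of all measured genes). All 47 members were matched. The coding genes were divided into 10 bins of equal size by GC content. Spearman's rho of the log2 ratio with GC content was -0.58 in TPM and -0.60 in coverage over the 47 members, and -0.64 and -0.67 over all coding genes. Of the 25 members in the 3 bins of lowest GC content, 15 were 2-fold higher in TPM (60.0%), against 39.2% of all coding genes there. Of 18 members in the 4 middle bins it was 3, KPNA2, KPNB1 and TNPO3, against 13.1% of coding genes. None of the 4 members in the 3 highest bins was 2-fold higher, against 1.504%. The members near or below a ratio of 0 were mostly GC-rich, such as IPO4 at 59.4%, IPO13 at 58.2% and RANGAP1 at 56.8%, while NUP88 was at 47.4%.

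Set against the median of coding genes in the same GC bin, members lay a median of 0.28 higher in TPM and 0.31 higher in coverage. In TPM 32 of 47 members were above that median, and in coverage 33. The members at least 1 log2 unit above it in TPM were XPO1, NUP107, TNPO1, NUP133 and NUP155, where 4.74% of all coding genes were. In coverage no member was, against 1.11%. The largest in coverage were NUP155 at 0.92, KPNB1 at 0.86 and KPNA2 at 0.84. NUP88 lay furthest below, at -0.67 in TPM and -0.45 in coverage, followed by NUP93 at -0.46 and -0.38. The part of GC content in the ratios was not tested further.

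**Figure D4:**
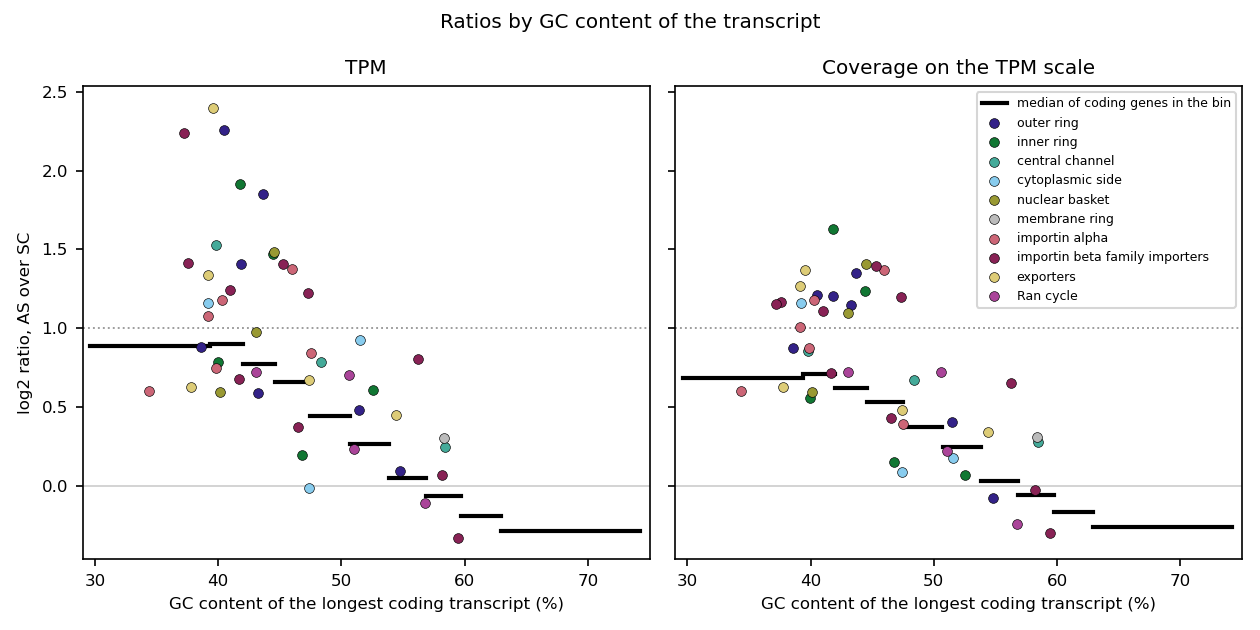
GC content of the longest coding transcript against the log2 ratio of AS over SC, in TPM (left) and coverage on the TPM scale (right), for 47 members coloured by role, with black bars at the median of all coding genes in each of 10 bins of GC content. Ratios of the members fall with GC content along the bars, with NUP155, KPNB1 and KPNA2 above their bar in both panels.

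Because the treatment is named for miR-494-3p, the 3' UTRs of the members were searched for matches to its seed, the stretch of a microRNA that pairs with target sites. The mature sequence and 3 members with a full 8-base match are shown to make the match visible. The microRNA is from RefSeq (GRCh38.p14, chr14:101029681-101029702, plus strand) with its seed, bases 2 to 8, in capitals, and the sites are from GENCODE release 29 transcripts with the match in capitals.
miR-494-3p: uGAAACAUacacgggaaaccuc
KPNA1, bases 949 to 956 of a 3' UTR of 5036 bases: taaaataaATGTTTCAggctttgt
TNPO3, bases 1107 to 1114 of 1237: agatcttaATGTTTCAaaggagtg
TPR, bases 473 to 480 of 2319: cttttttgATGTTTCAaaagattg

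A match was the 8-base ATGTTTCA or either of the 7-base ATGTTTC and TGTTTCA, in the longest annotated 3' UTR. It was found in 13 of 47 members (27.7%), the same share as the 27.7% of 10565 measured genes with a 3' UTR. An 8-base match occurred in KPNA1 (2 matches), TNPO3 and TPR. Their log2 ratios were 0.75, 1.23 and 0.59. The median log2 ratio was 1.07 for the 13 members with a match and 0.78 for the 34 without, and in coverage 1.00 and 0.69. Over all measured genes with a 3' UTR the same split gave 0.63 with a match and 0.19 without, so a gap of this kind was not particular to the members. The 3' UTRs of members with a match were longer, with a median of 2932 against 1106 bases. Of the 13 members with a match 7 were 2-fold higher in TPM, among them TNPO1, NUP133, IPO7 and IPO5. Of the 34 without a match 11 were, among them XPO1, NUP107, NUP155, KPNA2 and KPNB1. Among all measured genes 16.5% were. That share was not computed separately for genes with and without a match, so these counts are not read as a result about the members. A match is a description of the letters and not evidence of binding.

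Promoters were compared because many members were higher together. RefSeq gave the 250 bases before the start of 41 measured members, and these were searched on both strands. The shares set beside them are over all promoters and all coding ones, whether or not the gene was measured here. A share over measured genes only was not computed, so a trait of expressed genes in general cannot be told apart. The CCAAT box (CCAAT) was present in 19 of 41 members (46.3%), against 33.0% of 27305 promoters and 34.5% of the 15842 coding ones. The ETS motif (CCGGAAG) was present in 12 (29.3%), against 8.82% of all and 11.8% of coding promoters, and the E-box (CACGTG) in 7 (17.1%), against 6.49% and 7.84%. The palindromic NRF1 motif was in NUP107, NUP50 and NUP62 (7.32%), against 1.13% and 1.48%. The E2F motifs TTTCCCGC and TTTGGCGC were in none of these windows, against 1.42% and 0.553% of all promoters, and the CHR element (TTTGAA) was in 7 (17.1%), against 13.6% of all and 10.8% of coding promoters. None of these motifs contains another. Among the 15 members that were 2-fold higher, 7 held a CCAAT box, 3 an ETS motif and 4 a CHR element. Among the 26 others 12, 9 and 3 did. These differences were not tested.

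The last 120 bases before the start are shown for 2 members that were higher and for IPO4, which was not, with the searched motifs in capitals. They are examples only, since 7 of 15 higher members and 12 of 26 others held a CCAAT box in the 250 bases. XPO1 lies at chr2:61538357-61538476 on the minus strand and holds 2 CCAAT boxes. KPNA2 lies at chr17:68035615-68035734 on the plus strand and holds 2 CCAAT boxes and a CHR element, which reads TTCAAA on this strand. IPO4 lies at chr14:24188817-24188936 on the minus strand and holds an ETS motif and an E-box. Coordinates of these promoters are GRCh38.p14.
XPO1: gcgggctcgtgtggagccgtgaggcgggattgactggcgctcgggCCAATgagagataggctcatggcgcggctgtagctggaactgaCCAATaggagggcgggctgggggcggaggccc
KPNA2: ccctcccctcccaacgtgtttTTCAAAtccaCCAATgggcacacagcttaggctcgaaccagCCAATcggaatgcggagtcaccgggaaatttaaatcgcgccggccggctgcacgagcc
IPO4: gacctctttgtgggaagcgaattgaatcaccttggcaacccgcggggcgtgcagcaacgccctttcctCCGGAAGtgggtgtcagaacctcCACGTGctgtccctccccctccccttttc

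Genes that work beside the members differed from list to list, and are read against the 16.5% of all measured genes that were 2-fold higher in TPM and the 9.47% in coverage. Of 10 other pore genes, 6 were 2-fold higher in TPM and 2 in coverage. NUPL1, which encodes the channel subunit NUP58, was at 0.519 TPM in SC against 3.79 in AS (log2 ratio 1.66, but 0.57 in coverage) and passed the filter only through its AS value. NUPL2 was at 4.84 and 15.0 TPM (1.46, and 0.97 in coverage). Of 12 other transport factors 1 was 2-fold higher in either measure, the tRNA exporter XPOT (9.63 and 22.5 TPM, 1.14). Of 14 genes of mRNA export 3 were 2-fold higher in TPM and 1 in coverage, with the largest ratios in THOC1 (3.26 and 16.6 TPM, 2.05, but 0.98 in coverage) and THOC2 (1.21). Of 12 genes of the nuclear lamina and envelope 4 were 2-fold higher in TPM and 2 in coverage, with the largest ratios in TMPO (9.99 and 28.8 TPM, 1.44) and SYNE1 (1.29, but 0.35 in coverage). The 4 in TPM include a gene that passed the filter only through its AS value. None of the genes in these 4 lists was 2-fold lower in either measure. Their median log2 ratios in TPM were 1.09, 0.63, 0.34 and 0.25 in this order, against 0.28 over all measured genes.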

How the data were processed

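RNA-seq libraries of NCI-H2030 cells were analysed, 1 per group. Per the labels' protocols, total RNA was purified on columns and made into directional libraries. The authors deposited coverage (a signal per base), FPKM and TPM per gene, per the file headers. The TPM column holds annotated genes and separately assembled loci, the annotated ones alone summing to 973681 in SC and 968917 in AS, so only 1 set was used at a time. What aligner and quantification program were used is not given in the sources used here. Per the submitters' processing notes the builds are GRCh38 and hg38, whereas the gene coordinates in the tables are those of GRCh37. Groups were taken from the sample titles.

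From the deposited TPM of annotated genes, rows of 1 symbol were summed and log2((AS + 1)/(SC + 1)) was computed with Python 3.11.15 and pandas 2.3.3. A gene was kept if its 2 values averaged 1 TPM or more. Coverage was divided by its most common ratio to FPKM in each library (3.62 in SC, 3.54 in AS). It was then multiplied by the ratio of TPM to FPKM (1.98 and 2.13) to reach the TPM scale. Of rows above 0, 54.6% in SC and 52.6% in AS lay within 1% of the most common ratio. Calculations were tested on simulated data. Every member could be named, by role. The members, lists and context genes were chosen with earlier results of these data known. From each context list at most 2 genes, those of largest absolute ratio, were named, with XPOT alone named from the transport factors. Alternatives were other pseudocounts, filters, scalings, columns and the assembled loci. The GC, 3' UTR and promoter comparisons were chosen after seeing the data.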

Additional observations from a re-analysis of the deposited data

How the results depend on the processing

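The number of members at least 2-fold higher in AS was 18 of 47 (38.3%), against 16.5% of all measured genes. It stayed within 1.5 times of 18 under the 10 alternatives fixed at the start. It ran from 12 with trimmed mean scaling, which is at that limit, to 22 with a pseudocount of 0.1 TPM. Taking the row of highest mean TPM per symbol had to return 18, because each member had 1 row. Centring moved every ratio by 0.28, and the trimmed mean factor was 0.35 on the log2 scale before the pseudocount. After centring on the median of all measured genes 13 members and 9.17% of all genes were 2-fold higher, and after trimmed mean scaling 12 members and 8.75%. Of alternatives chosen after seeing the data, coverage without the TPM per FPKM factor gave 10 members, against 3.94% of all measured genes. Relative to the GC bin it was 5 in TPM and 0 in coverage, against 4.74% and 1.11% of coding genes. No member was 2-fold lower under any of these settings. Of all measured genes 2.17% were 2-fold lower in the main TPM setting, 5.09% after centring and 5.14% after trimmed mean scaling. In coverage it was 0.863%, and 0.615% without the factor. Relative to the GC bin it was 3.06% of coding genes in TPM and 0.451% in coverage. Shares of all genes under the other pseudocounts, filters and FPKM are not given. In the assembled loci 18 members were 2-fold higher, of which 13 were among the 18 in TPM, against 16.1% of all genes with a locus. The 5 higher in TPM but not in their locus were IPO7, NUP107, NUP205, RANBP2 and KPNA3. Their log2 ratios in the locus were 0.65, 0.89, 0.50, 0.85 and -0.16, so for KPNA3 the direction was reversed. Among members under 2-fold in TPM, NUP214, IPO13 and SEC13 also changed sign, with locus ratios of -0.10, -0.08 and -0.08. NUP88 changed sign the other way, to 0.15. Higher only in their locus were IPO8, NUP160, NUP50, RCC1 and XPO4, and RCC1 shares its locus with SNHG3. The largest locus ratios were those of NUP43 (3.55) and TNPO1 (3.47). Because a locus was picked in each library separately, these ratios can compare different stretches. The median log2 ratio of the members was 0.79. It was 0.92 with a pseudocount of 0.1 TPM, 0.63 with 5 TPM, 0.50 after centring, 0.46 after trimmed mean scaling, 0.66 in FPKM, 0.59 in coverage without the factor, and 0.28 and 0.31 relative to the GC bin in TPM and coverage. The cause of these shifts was not tested beyond the construction of each setting. No paired analysis was possible because each group held 1 library. Without read counts the precision of low members such as KPNA5, XPO4 and NUP133 is unknown.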
